A study of Mus musculus with 8 samples.

Results

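Cluster 0 is the pericentral-type hepatocyte cluster of a single-nucleus RNA-seq table of mouse liver, and its members are 2 of the 26 columns of that table, the mean over cluster 0 nuclei of the MKO pool and the mean over cluster 0 nuclei of the control pool. The table holds 13 clusters and 22578 genes, of which 19804 were above 0 in cluster 0 of the MKO pool and 19887 in cluster 0 of the control pool. MKO mice carried floxed Tgfbr1 alleles and LysMcre, a Cre recombinase driven from the Lyz2 locus of macrophages, monocytes and neutrophils. Control mice carried the floxed Tgfbr1 alleles without Cre. Both groups had been fed a MASH diet, a model of metabolic dysfunction-associated steatohepatitis, for 30 weeks. LysMcre acts in myeloid cells, and hepatocytes are not the cells in which it is meant to act. Each pool combined nuclei from 3 livers, so each genotype had 1 value per gene and cluster, and no test between the pools was possible. Whole-liver RNA-seq of 3 MKO and 3 control livers with the same genotypes and diet was used for the tests, and in whole liver fewer cells of a type cannot be told apart from less RNA per cell.

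Hepatocytes divide their work along the liver lobule. Those around the central vein receive Wnt signals from neighbouring endothelial cells and run glutamine synthesis, bile acid synthesis and much of the cytochrome P450 system, which oxidises drugs, steroids and fatty acids. Those near the portal vein run urea synthesis, gluconeogenesis and the breakdown of several amino acids. Zonation markers therefore tell where in the lobule a hepatocyte nucleus is likely to have come from.

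Values of nuclei are means scaled to a total of 10000 per column and are given here as levels per 10000. They are not divided by gene length, so levels of different genes are not compared. A log2 ratio is the log2 of the MKO level plus 0.1 over the control level plus 0.1. Genes whose mean over both pools reached 0.5 per 10000 are called kept genes, and a difference of at least 2-fold on that scale is the size used for counts. Folds printed for single genes are ratios of levels without the added 0.1. How many nuclei stand behind a mean is not stated, which leaves the depth unknown and allows no interval.

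The label of cluster 0 held against its markers. Of the 5 genes given for the cluster, the hepatocyte uptake transporter Slco1b2 was at 32.2 and 38.7 per 10000 in cluster 0 of the MKO and control pools, against 12.9 to 20.8 in the hepatocyte clusters 1 and 3. The glutamate transporter Slc1a2 was at 4.63 in the MKO pool and 7.72 in the control pool, and the Wnt co-receptor gene Lgr5 at 1.31 and 2.70. Compared with the mean of clusters 1 and 3, Lgr5 was 3.54-fold higher in cluster 0 of the MKO pool and 5.47-fold higher in cluster 0 of the control pool, and Slc1a2 was 4.70-fold and 5.02-fold higher. Of 16 pericentral markers, the 5 given ones among them, 8 were at least 2-fold above the mean of clusters 1 and 3 in both pools. The 8 were Glul, Cyp2e1, Cyp1a2 and Rgn beside the given Cyp2c29, Cyp2c38, Lgr5 and Slc1a2, and 0 were at least 2-fold below that mean. Of 16 periportal markers, 0 were enriched and 8 were depleted by the same measure. These values describe the cluster and test nothing, since the nuclei were grouped by the same genes.

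**Figure D1:**
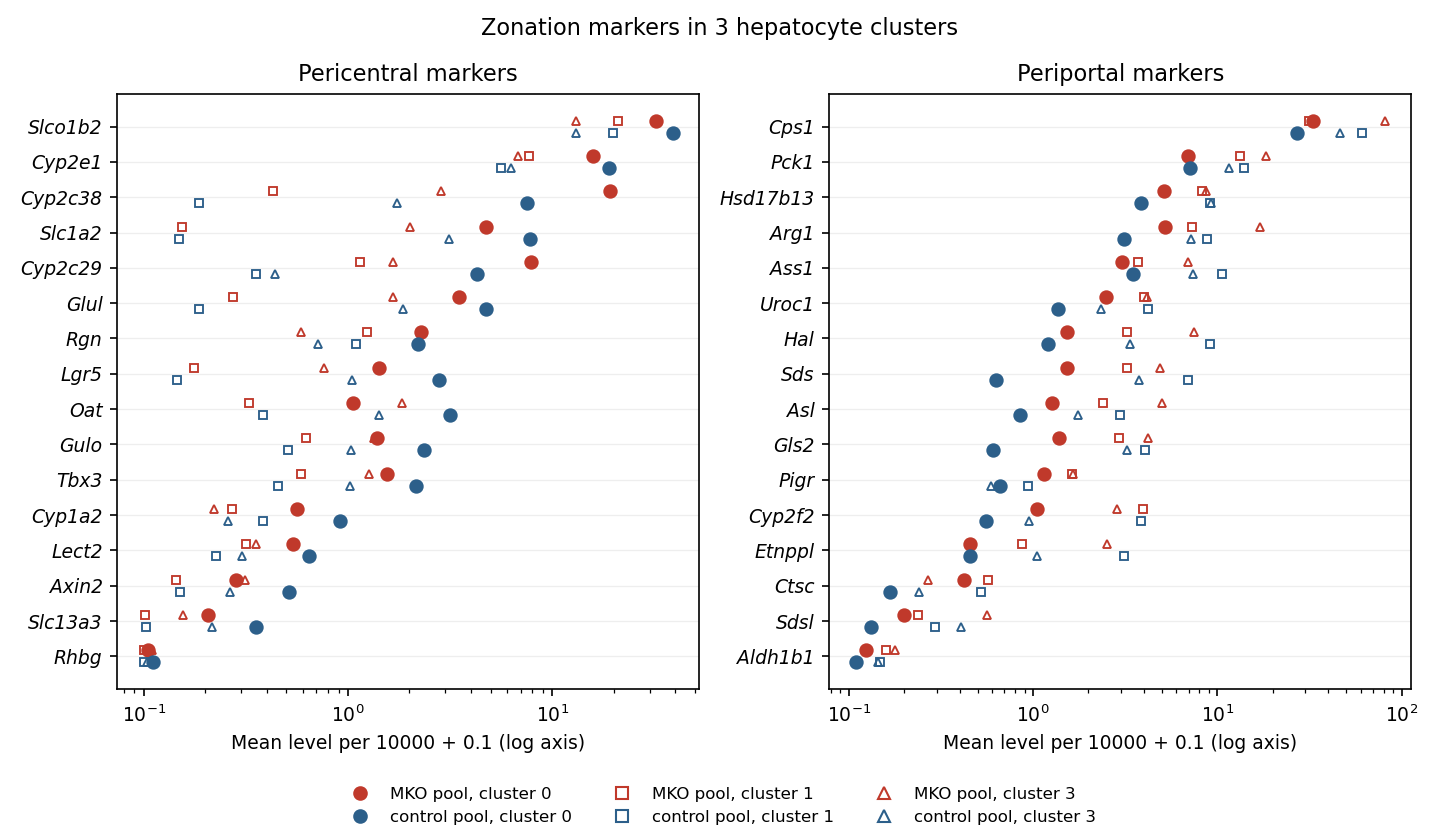
Levels of 16 pericentral markers (left) and 16 periportal markers (right) in the hepatocyte clusters 0, 1 and 3. Each point is the level of 1 gene in 1 cluster of 1 pool, per 10000 plus 0.1 on a log axis, with red for the MKO pool, blue for the control pool and filled circles for cluster 0. In cluster 0 most pericentral markers lie to the right of clusters 1 and 3 and most periportal markers to the left, and MKO circles lie left of control circles for 13 of 16 pericentral markers and right of them for 13 of 16 periportal markers.

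Most markers of other cell types were near 0 in cluster 0. The summed level of 22 macrophage markers was 1.13 in cluster 0 of the MKO pool and 0.672 in that of the control pool, against 105 and 90.8 in the macrophage cluster 2. Single macrophage markers reached at most 0.350 and 0.414 in cluster 0. The sums over 14 sinusoidal endothelial markers were 0.506 and 0.517, against 178 and 177 in cluster 4. The 16 stellate cell markers summed to 0.379 and 0.424, the 12 bile duct markers to 2.88 and 2.92 (Pkhd1 alone gave 1.26 and 1.44), and the 9 B lineage markers to 0.0611 and 0.0613. The 12 T and NK cell markers summed to 0.758 and 1.80, of which the thymocyte selection gene Themis alone gave 0.690 and 1.77. Both pools held Y-linked transcripts of Uty, Ddx3y and Eif2s3y at like levels.

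Tgfbr1 itself, the receptor that is floxed (chromosome 4, 47353222 to 47414931, + strand), was at 1.11 in cluster 0 of the MKO pool and 1.19 in cluster 0 of the control pool, a log2 ratio of -0.10. The log2 ratios in clusters 1 and 3 were -0.16 and -0.17. In whole liver Tgfbr1 was read at 560, 857 and 735 normalised reads in MKO livers and at 737, 810 and 777 in control livers, and the groups overlapped (log2 fold change -0.13 ± 0.16 SE, limma adjusted p = 0.816). Which exon is floxed is not stated, and a level summed along the gene can miss the loss of 1 exon.

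A group of P450 genes stood highest in cluster 0 relative to the other hepatocytes, and growth factor and periportal genes stood lowest. Over 3874 genes compared, 18 were at least 2-fold higher and 7 at least 2-fold lower in cluster 0 than in both clusters 1 and 3, in both pools. Ordered by the smaller of the pools' differences, the 10 highest were Cyp2b9, Cyp2c39, Cyp2a5, Cyp2c29, Cyp3a11 and Cyp2c38, all cytochrome P450 enzymes, with Tbx3os1, the fatty acid receptor gene Cd36, the homeobox gene Pknox2 and the lipid droplet coat gene Plin4. Cyp2b9 was 59.0-fold above the mean of clusters 1 and 3 in the MKO pool and 20.4-fold above it in the control pool. Cyp2c39 was 73.5-fold and 11.5-fold above it, and Cyp2c38 12.4-fold and 8.62-fold. In clusters 1 and 3 of the MKO pool Cyp2c39 was at 0.0724 and 0.135, so its fold there rests on levels near 0. The 10 lowest were Igf1, Platr22, Cdh1, Hal, Gls2, Sds, Egfr, Esr1, Got1 and Serpina1e, of which the last 3 did not reach 2-fold. Egfr, the receptor for epidermal growth factor, was at 5.91 in cluster 0 of the MKO pool and 5.53 in that of the control pool, against 11.5 to 46.6 in clusters 1 and 3. Igf1, the growth hormone target that hepatocytes secrete, was at 3.09 and 3.38, against 8.22 to 12.8.

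Cluster 0 differed little between the pools for most genes. Of 4056 kept genes, 57 (1.41%) were at least 2-fold higher in the MKO pool and 42 (1.04%) at least 2-fold lower, and 89.4% lay within 1.5-fold. The median log2 ratio was -0.04, with 43.7% of kept genes above 0 and 56.3% below 0. In cluster 1 the same rule took 61 genes higher (1.54%) and 37 lower (0.937%) of 3950, and in cluster 3 it took 104 higher (2.55%) and 96 lower (2.35%) of 4086. Retained nuclear RNA Malat1 was at 453 in cluster 0 of the MKO pool and 306 in that of the control pool, and mitochondrial transcripts made up 0.317% and 0.170% of the total. All 10 kept genes of the list of nuclear and mitochondrial RNA were above 0 on the log2 scale, with a median of 0.83, and their part in the ratios of other genes was not tested.

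Many genes kept in cluster 0 were also read in the nuclei of the endothelial cluster 4. Of the 4056 kept genes, 2668 stood in cluster 4 at 50% or more of their cluster 0 level in at least 1 pool. The same was so for 30 of the 57 genes higher in the MKO pool, leaving 27, and for 14 of the 42 lower, leaving 28. Both are smaller shares than over all kept genes. The measure also takes genes that stand higher in cluster 4, such as Apc at 290% (MKO pool) and 307% (control pool) of its cluster 0 level. It therefore does not single out hepatocyte transcripts. Below, genes of either kind are told apart where a result turns on them.

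**Figure D2:**
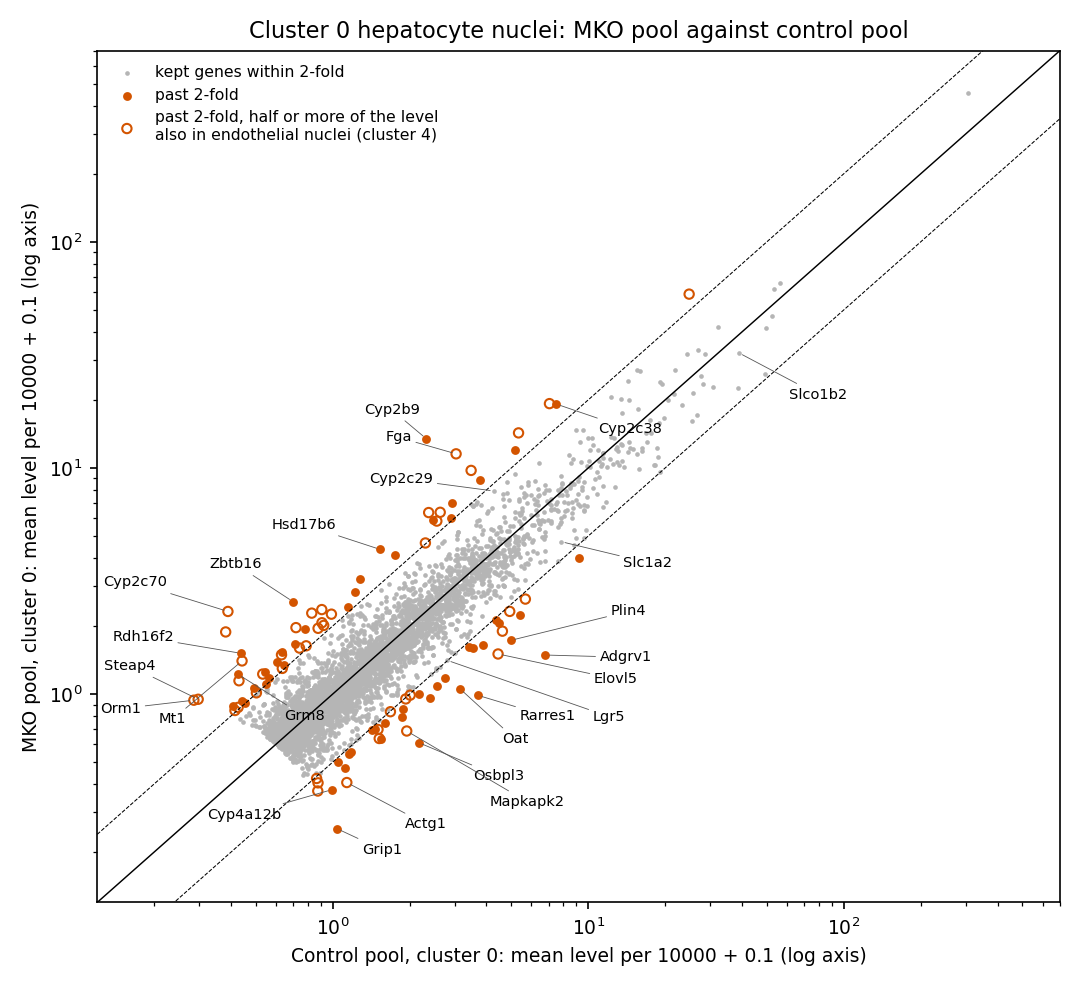
Levels of the 4056 kept genes in cluster 0 of the MKO pool (vertical axis) and the control pool (horizontal axis), both per 10000 plus 0.1 on log axes, 1 point per gene. The solid line marks equal levels and the dashed lines 2-fold differences. Orange points are the 57 genes above and the 42 genes below those lines, and open ones also stood at 50% or more of their level in the endothelial cluster 4.

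P450 genes held the 2 highest ratios between the pools, and other P450 genes were lower in the MKO pool. Of 35 kept P450 genes, 4 were at least 2-fold higher in the MKO pool and 2 at least 2-fold lower, against 1.41% and 1.04% of all kept genes. Their median log2 ratio was 0.18 against -0.04 over all kept genes. Cyp2b9 (chromosome 7, 26173411 to 26210661, + strand), which in mice is expressed mainly in female liver, was at 13.4 in the MKO pool and 2.22 in the control pool, 6.02-fold higher. Its log2 ratio was 2.54 in cluster 0, 0.87 in cluster 1 and 0.27 in cluster 3, and its level was at most 0.338 in those other clusters. Cyp2c70 (chromosome 19, 40153353 to 40187333, - strand), which makes the muricholic acids of mouse bile, was at 2.22 and 0.290, a log2 ratio of 2.58. In clusters 1 and 3 Cyp2c70 was lower in the MKO pool, with log2 ratios of -0.70 and -0.74, and in the endothelial cluster 4 it stood at 0.132 and 0.148. Cyp2c38 was at 19.1 in the MKO pool and 7.41 in the control pool (log2 ratio 1.35) and Cyp2c68 at 4.03 and 1.65 (1.24). Cyp2c29 was at 7.81 and 4.19, a log2 ratio of 0.88 that stayed short of 2-fold in cluster 0, while it reached 1.696 in cluster 1 and 1.91 in cluster 3.

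P450 genes on the other side included members that are higher in male mouse liver. The fatty acid hydroxylases Cyp4a12a and Cyp4a12b, both typical of males, were at 0.443 and 0.278 in the MKO pool and at 1.06 and 0.895 in the control pool, with log2 ratios of -1.10 and -1.40. Cyp3a25 was at 26.03 in the MKO pool and 49.1 in the control pool (-0.91), Cyp3a11 at 2.59 and 4.91 (-0.90), and Por, the reductase that supplies electrons to all microsomal P450 enzymes, at 3.79 and 6.66 (-0.80). Cyp2e1, the ethanol-oxidising pericentral enzyme, was at 15.7 and 18.8. The Cyp2c, Cyp2b, Cyp3a and Cyp4a genes are families of related copies, so the split of reads among their more similar members is uncertain.

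The promoters of the Cyp2c and Cyp2b genes that set cluster 0 apart are shown because these genes are neighbours or relatives whose ratios between the pools differ. Sequences are RefSeq promoters of GRCm38.p6, from 250 bases before to 50 bases after the start, on the strand of the gene, and capitals mark 2 motifs searched on both strands. The first is CTTTGAT, the core bound by TCF/LEF factors of the Wnt pathway, which reads ATCAAAG on the other strand. The second is CAAAGTC, part of the site of the hepatocyte factor HNF4.
Cyp2c38 (chr19:39463026-39463325, - strand): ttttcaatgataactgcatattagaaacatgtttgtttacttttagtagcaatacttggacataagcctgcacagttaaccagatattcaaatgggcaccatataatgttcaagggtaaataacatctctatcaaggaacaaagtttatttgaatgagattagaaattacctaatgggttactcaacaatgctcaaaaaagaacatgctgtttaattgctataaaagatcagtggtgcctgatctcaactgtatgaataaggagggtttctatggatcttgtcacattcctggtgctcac
Cyp2c29 (chr19:39286835-39287134, + strand): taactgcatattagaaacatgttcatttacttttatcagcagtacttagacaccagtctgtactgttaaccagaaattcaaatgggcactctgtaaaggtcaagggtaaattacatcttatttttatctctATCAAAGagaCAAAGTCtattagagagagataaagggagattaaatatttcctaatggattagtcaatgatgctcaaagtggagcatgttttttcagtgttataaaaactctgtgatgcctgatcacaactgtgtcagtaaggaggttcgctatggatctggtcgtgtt
Cyp2c39 (chr19:39510572-39510871, + strand): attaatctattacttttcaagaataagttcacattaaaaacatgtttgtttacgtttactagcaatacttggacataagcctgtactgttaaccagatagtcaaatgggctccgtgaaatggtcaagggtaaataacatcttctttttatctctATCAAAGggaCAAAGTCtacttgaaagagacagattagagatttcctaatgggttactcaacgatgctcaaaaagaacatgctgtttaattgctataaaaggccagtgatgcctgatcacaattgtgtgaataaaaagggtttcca
Cyp2b9 (chr7:26173159-26173458, + strand): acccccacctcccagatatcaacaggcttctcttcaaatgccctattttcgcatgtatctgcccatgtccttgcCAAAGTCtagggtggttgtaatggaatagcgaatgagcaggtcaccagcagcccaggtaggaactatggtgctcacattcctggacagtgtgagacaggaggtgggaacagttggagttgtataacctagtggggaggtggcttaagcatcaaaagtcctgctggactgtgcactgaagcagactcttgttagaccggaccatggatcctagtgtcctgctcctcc

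Cyp2c29 and Cyp2c39 held both motifs without overlap, starting 119 and 109 bases before the start in Cyp2c29 and 96 and 86 bases before it in Cyp2c39. Cyp2c38 held neither in this window, and Cyp2b9 held only CAAAGTC, 176 bases before its start. The Cyp2c38 promoter was 70.8% identical to that of Cyp2c29 and 72.9% identical to that of Cyp2c39 over the aligned columns, gaps included. Among all 32851 promoters of this length, 3.73% held CTTTGAT and 4.44% held CAAAGTC. Of the 9 genes highest in cluster 0 that have a promoter in the RefSeq table, 2 held the first motif and 5 the second. For the 7 lowest genes these counts were 1 and 0, for 11 pericentral markers 3 and 1, and for 10 periportal markers 1 and 1. These counts take a gene with a match in any of its promoters, while the shares above are of single promoters. The 9 genes include related Cyp2c copies, so their matches are not independent, and no difference between the sets was tested. A match describes the letters in the window and not a bound site.

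Kept genes of the pericentral list were mostly lower in cluster 0 of the MKO pool, while Cyp2c38 and Cyp2c29 were higher. Of 27 kept genes of the pericentral list, 7 were above 0 and 20 below 0 on the log2 scale, against 56.3% of all kept genes below 0. The median was -0.28, but only Cyp2c38 (higher) and Oat (lower) passed 2-fold. Oat, which makes glutamate from ornithine (chromosome 7, 132557478 to 132576398, - strand), was at 0.955 in the MKO pool and 3.06 in the control pool, a log2 ratio of -1.58. Lgr5 had a log2 ratio of -0.99 and Slc1a2 of -0.73. The glutamine synthetase gene Glul was at 3.38 in the MKO pool and 4.65 in the control pool (-0.45), and the Wnt target Axin2, too low to be kept, at 0.184 and 0.412. The 16 pericentral markers summed to 91.2 in cluster 0 of the MKO pool and 95.7 in that of the control pool, a sum in which the higher Cyp2c38 and Cyp2c29 stand against 13 lower markers.

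Periportal genes were more often higher in the MKO pool, and 26 of 29 kept ones in the MKO pool and 27 of 29 in the control pool stayed below the mean of clusters 1 and 3. Of 29 kept genes of the periportal list, 6 were at least 2-fold higher in cluster 0 of the MKO pool and 0 at least 2-fold lower. Over all kept genes these shares were 1.41% and 1.04%, and the list's median log2 ratio was 0.37. Among the 6, Serpina1c (log2 ratio 1.01) stood in cluster 4 above its cluster 0 level in both pools, at 5.47 in the MKO pool and 2.55 in the control pool. Hsd17b6, a steroid and retinol dehydrogenase, was at 4.26 in the MKO pool and 1.44 in the control pool (1.51), and Gldc, the glycine cleavage enzyme, at 1.85 and 0.683 (1.32). The serine dehydratase Sds was at 1.43 and 0.532 (1.28), and the glutaminase Gls2 at 1.28 and 0.506 (1.19). The 16 periportal markers summed to 63.4 in the MKO pool and 49.7 in the control pool in cluster 0. In cluster 1 their sum was lower in the MKO pool, at 85.7 against 138, and in cluster 3 higher, at 164 against 98.0. Urea cycle genes differed less in cluster 0, with Cps1 at 33.0 in the MKO pool and 26.9 in the control pool, Ass1 at 2.94 and 3.40, and Arg1 at 5.11 and 3.004. Whether cluster 0 drew nuclei from the same part of the lobule in both pools was not tested, since the table holds no single nuclei.

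Kept Wnt pathway genes and liver transcription factors showed no difference of 2-fold. The Wnt list member Tnfrsf19, too low to be kept, was at 0.226 in the MKO pool and 0.629 in the control pool (log2 ratio -1.16). Of 13 kept Wnt pathway genes, 0 passed 2-fold in either direction, Lgr5 being the nearest, with Tcf7l2, a TCF factor, at 6.82 in the MKO pool and 6.10 in the control pool. The Wnt feedback genes Znrf3 and Rnf43 were at 3.54 and 3.74 in the MKO pool and at 4.32 and 4.43 in the control pool. Of 29 kept nuclear receptors and hepatocyte transcription factors, 0 passed 2-fold. The nearest was Pparg, a receptor that drives lipid storage, at 0.672 and 1.42 (log2 ratio -0.98), followed by Esrrg at 5.21 and 8.72 (-0.73). Hnf4a was at 3.36 and 2.82, and the zinc finger factor Zbtb20 at 22.8 and 30.8. All 8 kept circadian clock genes lay below 0 on the log2 scale, as did 56.3% of all kept genes, from Dbp at -0.78 to Clock and Tef at -0.08, and none passed 2-fold.

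Lipid genes were mostly lower in the MKO pool, by less than 2-fold. Of 20 kept genes of lipogenesis and lipid droplets, 16 lay below 0, against 56.3% of all kept genes. Of the 20, 2 passed 2-fold, both lower, against 1.04% of all kept genes at least 2-fold lower. The droplet coat gene Plin4 (chromosome 17, 56100591 to 56109803, - strand) was at 1.63 in the MKO pool and 4.88 in the control pool, a log2 ratio of -1.53, and the fatty acid elongase Elovl5 at 1.41 and 4.34 (-1.56). Cd36 was at 1.13 and 2.33 (-0.98), a value just inside 2-fold, but in the endothelial cluster 4 it stood at 7.21 and 6.69. Plin2, the main droplet coat of hepatocytes, was at 4.25 and 5.09, and the lipogenic enzymes Scd1 and Acaca differed by less than 0.1 on the log2 scale. Among 36 kept genes of fatty acid oxidation and ketogenesis, 1 was past 2-fold. This was Pdk4, an inhibitor of pyruvate oxidation, at 0.305 and 0.777 (-1.11).

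Bile acid, cholesterol and glucose genes included single members past 2-fold. The organic anion transporter gene Slco1a4 was at 8.72 in the MKO pool and 3.66 in the control pool (log2 ratio 1.23), the only member past 2-fold among 30 kept genes of bile acid synthesis and transport. Cyp7b1, of the acidic bile acid pathway, was at 10.2 and 18.05 (-0.81), and the rate-limiting Cyp7a1 at 3.73 and 4.21 (-0.17). Apoa1, the main protein of high-density lipoprotein, was at 19.2 and 6.96 (1.45) but stood at 16.8 and 7.90 in the endothelial cluster 4. Among glucose genes, the glucose-6-phosphate transporter Slc37a4 was at 0.790 in the MKO pool and 0.309 in the control pool (1.12). The insulin receptor substrate Irs1 was at 2.03 and 4.26 (-1.04), and glycogen synthase Gys2 at 1.80 and 3.34 (-0.85).

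Amino acid genes were higher and lower in near equal number. Of 52 kept genes, 3 were at least 2-fold higher and 4 at least 2-fold lower, against 1.41% and 1.04% of all kept genes. The higher ones were Gldc, Sds and Gls2, all above. Beside Oat, the lower ones were Cth, Got1 and Aass. Cth, which makes cysteine from cystathionine, was at 2.15 in the MKO pool and 5.30 in the control pool (log2 ratio -1.27). The aspartate aminotransferase Got1 was at 0.273 and 0.775 (-1.23), and Aass, of lysine breakdown, at 2.53 and 5.58 (-1.11). The methionine enzymes Mat1a and Bhmt were at 11.4 and 2.94 in the MKO pool and at 15.4 and 4.56 in the control pool. The list's median log2 ratio was -0.10 in cluster 0, -0.31 in cluster 1 and 0.56 in cluster 3.

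Genes of secreted plasma proteins formed the largest group past 2-fold by count, though not by share of their list. Of 53 kept genes of acute phase, complement and coagulation, 41 lay above 0, against 43.7% of all kept genes. Of the 53, 8 were at least 2-fold higher in the MKO pool, against 1.41% of all kept genes, and 0 at least 2-fold lower, with a median log2 ratio of 0.47. The fibrinogen chains were at 11.5 (Fga), 14.2 (Fgb) and 9.66 (Fgg) in the MKO pool and at 2.94, 5.24 and 3.38 in the control pool, log2 ratios of 1.92, 1.42 and 1.49. The 3 genes neighbour each other on chromosome 3, between 83007724 and 83049863. Haptoglobin (Hp) was at 6.25 and 2.28, hemopexin (Hpx) at 6.27 and 2.54, orosomucoid (Orm1) at 0.841 and 0.187, and albumin (Alb), which falls in acute inflammation, at 58.6 and 24.7. Members that did not follow included Crp at 7.002 in the MKO pool and 8.53 in the control pool, and C6, of the complement attack complex, at 1.43 and 2.79.

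All 8 of these genes were also read in cluster 4, at 50% or more of their cluster 0 level in at least 1 pool. Alb was at 50.3 in cluster 4 of the MKO pool and 29.6 in that of the control pool, so in the control pool endothelial nuclei stood above cluster 0. The same held in the control pool for Fgg (3.83 in cluster 4) and Hp (2.72), and in both pools for Hpx (8.72 in cluster 4 of the MKO pool and 3.68 in that of the control pool) and Orm1 (1.51 and 0.361). Where these reads in cluster 4 came from was not tested, and means scaled per column cannot tell how far the same source adds to cluster 0. Differences between the pools at levels at or below those of cluster 4 are not read here as changed expression in cluster 0. The log2 ratios in cluster 4 were 0.23 for Fga, 0.86 for Fgb, 0.37 for Fgg, 1.17 for Hp, 1.22 for Hpx and 0.76 for Alb. Over the 53 kept genes the median log2 ratio was 0.44 in cluster 1, 0.02 in cluster 3 and 0.38 in cluster 4.

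Chaperone genes of the endoplasmic reticulum, which are induced when unfolded proteins build up there, had the highest median of the zonation and pathway lists with at least 5 kept genes. Of 17 kept genes of the unfolded protein and integrated stress responses, 15 lay above 0, against 43.7% of all kept genes. Of the 17, 6 were at least 2-fold higher in the MKO pool, against 1.41%, and 0 lower, with a median log2 ratio of 0.75. Herpud1, of protein degradation at the endoplasmic reticulum, was at 5.77 and 2.38 (1.24), Pdia3, a disulfide isomerase, at 2.27 and 0.808 (1.38), the chaperone Hspa5 at 1.86 and 0.778 (1.16) and Manf at 1.13 and 0.433 (1.20). Calr and Pdia4 were the other members past 2-fold. The translation-linked stress genes Atf4 and Gdf15 were at 0.689 and 0.819 in the MKO pool and at 0.875 and 0.911 in the control pool. The list's median was 0.68 in cluster 1 and -0.37 in cluster 3. In cluster 4 it was 0.13, and 4 of the 6 genes stood there at 50% or more of their cluster 0 level in at least 1 pool, Herpud1 and Pdia4 being the exceptions.

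Of 19 kept iron and heme genes, 4 were at least 2-fold higher in the MKO pool, against 1.41% of all kept genes, and 0 lower. They were Steap4, Hamp and the plasma proteins Hp and Hpx, both read in cluster 4 at like or higher levels. Hepcidin (Hamp), the hormone that limits iron uptake and a target of BMP signalling in hepatocytes, was at 11.9 in cluster 0 of the MKO pool and 5.08 in that of the control pool (log2 ratio 1.22). It was the only one of 23 kept TGF-beta and BMP genes past 2-fold, and its log2 ratio was 0.15 in cluster 1 and 1.79 in cluster 3. In the endothelial cluster 4 Hamp stood at 3.44 and 1.52, a log2 ratio of 1.13. Whole livers overlapped, at 8099, 1587 and 16784 normalised reads in MKO livers and 5520, 9719 and 6026 in control livers. The Hamp log2 fold change there was -0.19 ± 0.72 (SE, limma adjusted p = 0.95). The BMP feedback genes Smad7, Id2 and Id3 had log2 ratios of 0.17, 0.28 and -0.22. Steap4, a metalloreductase, was at 0.850 and 0.198 (1.67). Of 9 kept genes of interferon response and antigen presentation, the MHC class I gene H2-D1 alone passed 2-fold, at 1.20 and 0.536 (1.03), with a log2 ratio of 1.35 in cluster 4, where it stood at 6.96 and 2.67. The interleukin 6 receptor Il6ra was at 3.13 in the MKO pool and 1.18 in the control pool (1.34), and the lipopolysaccharide binding protein Lbp at 1.39 and 0.531 (1.24). Of 15 kept NRF2 and oxidative stress genes and of 4 kept genes of injury and cell cycle, 0 passed 2-fold. In whole liver limma called Gclc and Osgin1 of the NRF2 list lower in MKO livers. Their log2 fold changes were -0.90 ± 0.17 and -1.08 ± 0.21 (SE, limma adjusted p = 0.0257 and 0.0293). The cluster 0 log2 ratios of Gclc and Osgin1 were 0.08 and -0.19. G6pdx of that list, too low to be kept, was called higher (1.13 ± 0.16 SE, limma adjusted p = 0.00692).

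**Figure D3:**
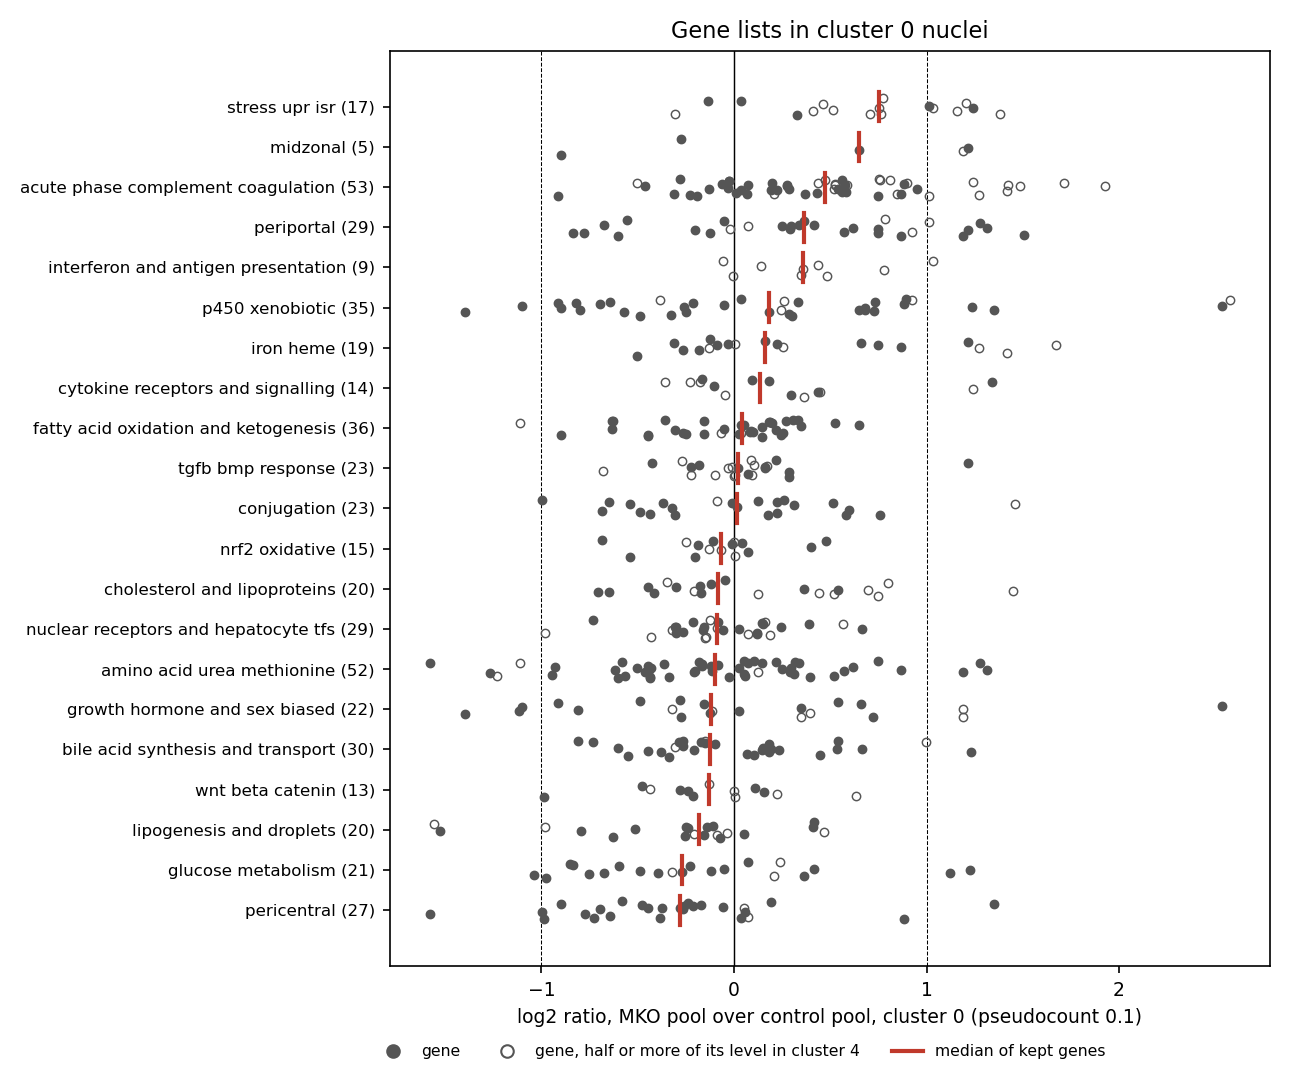
Log2 ratios of the MKO pool over the control pool in cluster 0 for the kept genes of each zonation or pathway list with at least 5 of them, 1 point per gene, with the number of kept genes in brackets. Red bars are list medians, dashed lines mark 2-fold, and open points are genes that also stood at 50% or more of their level in the endothelial cluster 4. Of the lists drawn, the stress list has the highest median (0.75) and the pericentral list the lowest (-0.28).

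Among the 10 highest and 10 lowest genes by ratio were several outside these lists. Zbtb16, a zinc finger transcription factor, was at 2.46 in the MKO pool and 0.601 in the control pool (log2 ratio 1.87), with 0.65 in cluster 1, 1.31 in cluster 3 and 1.32 in cluster 4. In whole liver Zbtb16 was called in the opposite direction, lower in MKO livers, when the third MKO liver was left out. Mt1, a metal-binding metallothionein, was at 1.303 and 0.342 (1.66) but at 1.44 and 0.817 in cluster 4. Rdh16f2, a retinol dehydrogenase, was at 1.42 and 0.339 (1.79), while its relatives Rdh16 and Rdh9 were at least 2-fold lower (-1.24 and -1.29), and the split of reads among these copies is uncertain. The glutamate receptor gene Grm8 was at 1.12 and 0.327 (1.52), below its level in clusters 1 and 3.

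On the low side stood Adgrv1, a very large adhesion receptor (chromosome 13, 81095068 to 81633154, - strand), at 1.39 in the MKO pool and 6.71 in the control pool (log2 ratio -2.19). Its log2 ratio was -0.58 in cluster 1 and -3.34 in cluster 3. Grip1, a scaffold protein of receptors, was at 0.154 and 0.940 (-2.03), and Rarres1, a gene induced by retinoic acid, at 0.888 and 3.60 (-1.91). Rarres1 was lower in all 3 hepatocyte clusters, with log2 ratios of -1.21 in cluster 1 and -1.44 in cluster 3. Osbpl3, a lipid transfer protein, was at 0.511 and 2.07 (-1.83), Mapkapk2, a kinase downstream of p38, at 0.587 and 1.85 (-1.50), and the cytoplasmic actin Actg1 at 0.307 and 1.04 (-1.48). Themis was at least 2-fold lower too, and its cluster 0 level stood 6.81-fold (MKO pool) and 10.0-fold (control pool) above the mean of clusters 1 and 3.

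**Figure D4:**
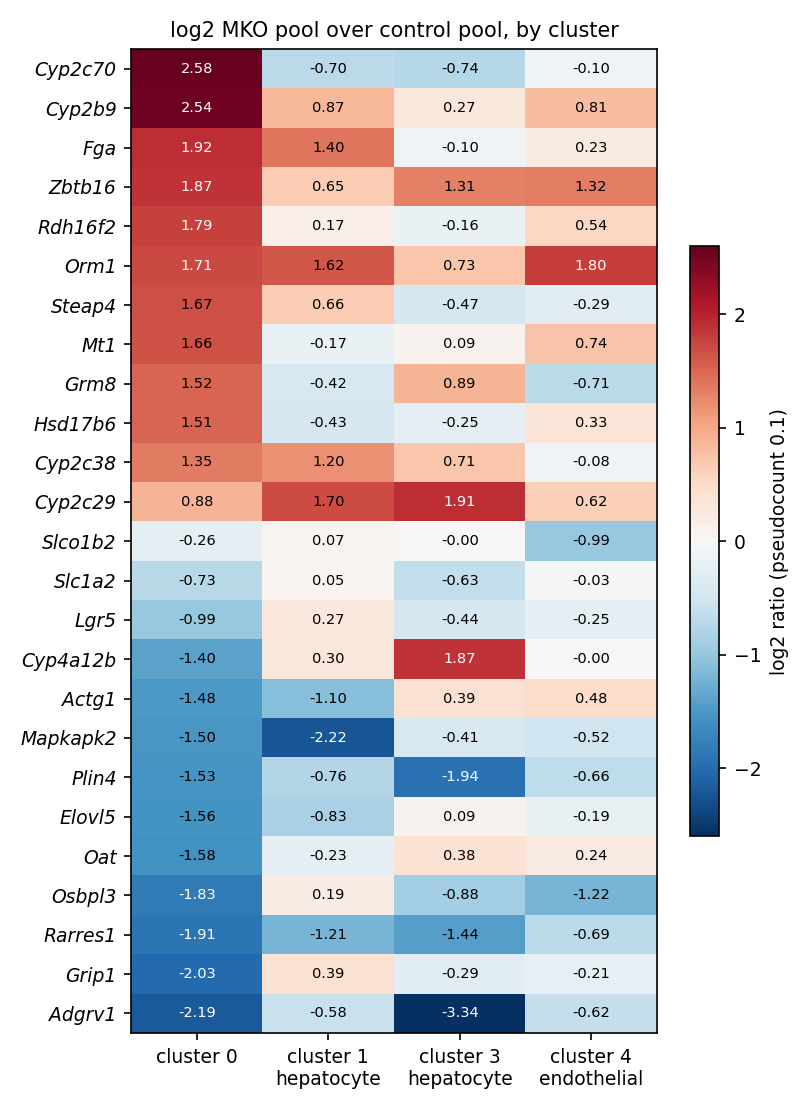
Log2 ratios of the MKO pool over the control pool for the 5 given markers, the 10 highest and the 10 lowest genes of cluster 0, in clusters 0, 1 and 3 (hepatocytes) and in cluster 4 (endothelial). Red is higher and blue lower in the MKO pool, with the value printed in each cell. Cyp2c70 runs from 2.58 in cluster 0 to -0.74 in cluster 3, while Rarres1 is negative in all 4 clusters.

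Whole livers, which have 3 livers per genotype, gave no gene called by limma among those past 2-fold in cluster 0. Their values are reads divided by size factors. At an adjusted p under 0.05, limma called 452 of 15249 genes (2.96%) higher in MKO livers and 13 (0.0853%) lower. Among the 3982 genes tested that are kept in cluster 0, 4 rose and 6 fell. An unadjusted p under 0.05 was found for 12.1% of all tested genes and 7.48% of those kept in cluster 0. Of the 55 tested genes that were 2-fold higher in cluster 0 of the MKO pool, limma called 0, with 3 at an unadjusted p under 0.05, edgeR called 0 and DESeq2 called 1. Of the 42 that were 2-fold lower, limma, edgeR and DESeq2 called 0 each, with 7 at an unadjusted p under 0.05. Of the 7, Gpcpd1 and Syne1 were higher in MKO livers, and Rarres1, Bach2, Cyp4a12a, Carmil1 and Slc25a30 were lower, as in cluster 0. The 3 were H2-D1, Apol9b and Pter, with log2 fold changes of 0.42, 0.52 and -0.53, and limma adjusted p-values of 0.334, 0.187 and 0.126.

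Single livers decided several of these whole-liver values. Cyp2b9 was read at 4844, 353 and 145 normalised reads in MKO livers and at 244, 350 and 389 in control livers. The first MKO liver stood far above all others and the third below all, and the log2 fold change of 0.97 ± 1.052 (SE) had a limma adjusted p of 0.791. Cyp2c38 was at 2064, 1878 and 432 in MKO livers and at 1408, 1421 and 1876 in control livers (log2 fold change -0.39 ± 0.52, limma adjusted p = 0.833). Here the third MKO liver was the low one. Cyp2c39 was at 3300, 1136 and 38.5 in MKO livers and at 3736, 3423 and 1374 in control livers, again with the third MKO liver lowest. Cyp2c29 was at 7626, 4764 and 5619 in MKO livers and at 4045, 5089 and 6243 in control livers, and the groups overlapped (limma adjusted p = 0.752).

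Other genes of cluster 0 overlapped between the genotypes as well. Lgr5 was at 135, 187 and 90.5 normalised reads in MKO livers and at 182, 149 and 157 in control livers (log2 fold change -0.30 ± 0.25 SE, limma adjusted p = 0.724). Plin4 was at 8447, 1427 and 2738 in MKO livers and at 3301, 3238 and 3687 in control livers, with the first MKO liver high and the other 2 MKO livers below every control liver. Oat was at 25228, 16429 and 34278 in MKO livers and at 18680, 23853 and 15767 in control livers, a mean higher in MKO livers, against the lower level in cluster 0. The means of Fga were 105739 ± 33322 in MKO livers and 127849 ± 74465 in control livers (SD, n = 3 each), and its log2 fold change of -0.17 ± 0.43 had a limma adjusted p of 0.92.

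Livers of the 2 genotypes did not overlap for 14 of the 102 genes named by rule, against 19.4% of all tested genes. Of the 102, limma called 1 higher and 1 lower in MKO livers, against 2.96% and 0.0853% of all tested genes. Slco1b2 and Rarres1 were among the 14 without overlap, neither called by limma. Slco1b2 was at 17999, 18161 and 12036 normalised reads in MKO livers and at 24355, 22231 and 25226 in control livers (log2 fold change -0.60 ± 0.19 SE, limma adjusted p = 0.204), and DESeq2 called it with an adjusted p of 0.0424. Rarres1 was at 2248, 1701 and 1494 in MKO livers and at 2474, 2261 and 3219 in control livers (-0.55 ± 0.18, limma adjusted p = 0.233). Both were lower in cluster 0 of the MKO pool as well, with log2 ratios of -0.26 and -1.91. Of the lists, the unfolded protein and integrated stress genes had a median log2 fold change of -0.33 over 34 tested genes in whole liver, where limma and edgeR called 0, DESeq2 called 1 and 6 had an unadjusted p under 0.05, which 12.1% of all tested genes had. The plasma protein list had a median of -0.14 over 66 tested genes, where limma, edgeR and DESeq2 called 0 and 3 had an unadjusted p under 0.05. The third control liver stood apart on this list, lowest of the control livers for 61 of 66 genes, and without it the median was -0.30. On the stress list it was also the lowest control liver for chaperones such as Hspa5, Pdia3 and Calr, and the highest for Atf5 and Fgf21. Hspa5 was at 9922, 9779 and 7486 normalised reads in MKO livers and at 11251, 15962 and 7067 in control livers. Haptoglobin (Hp) was at 96610, 116451 and 125784 normalised reads in MKO livers and at 189829, 239787 and 58461 in control livers. The whole-liver medians of the stress and plasma protein lists lie on the other side of 0 from those of cluster 0. The cluster 0 medians cover only the kept genes of each list, so the gene sets differ. Over all tested genes kept in cluster 0, the whole-liver median log2 fold change was -0.09.

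**Figure D5:**
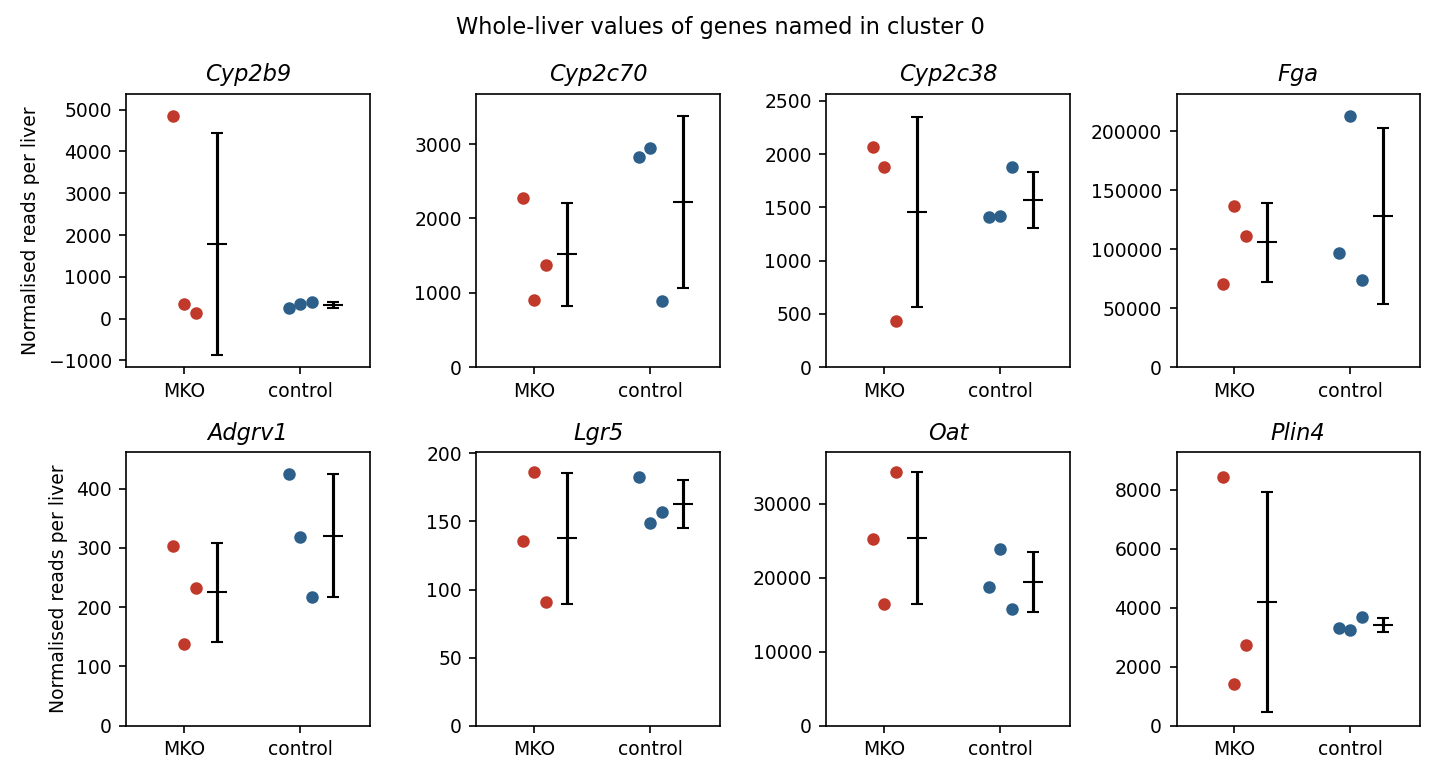
Normalised reads per liver of 8 genes named in cluster 0, in MKO livers (red) and control livers (blue), 1 point per liver, with the mean and SD beside the points (n = 3 each). The groups overlap in all 8 panels, and the first MKO liver stands apart for Cyp2b9 (4844) and Plin4 (8447).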

How the data were processed

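Nuclei were isolated from frozen liver, stained with propidium iodide, sorted and run on 10x Chromium, per the labels' protocols, with 3 livers pooled per genotype. The deposited cluster signal is a mean scaled by the authors to 10000 per column, a sum tested on the file. Filters, clustering and doublet handling are not stated. The deposited whole-liver signal is read counts that the authors divided by size factors, and 100% of its values came out as whole reads (tolerance 0.01) when scaled back. The submitters' processing notes name FastQC, STAR, RSEM 1.3.3, DESeq2, Cell Ranger, Seurat 4.0.1 and mm10. Replicates carry only a number, and p-values then reflect the variation among these libraries, which may be technical, at 17448117 to 23986319 recovered reads each.

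Whole-liver values with a mean of at least 1 were tested as log2(value + 1) with limma 3.58.1 (trended) in R 4.3.3 and Benjamini-Hochberg adjustment; fold changes are on that scale. edgeR 4.0.16 and DESeq2 1.42.0 on recovered reads, other pseudocounts, filters and left-out livers were alternatives. Nuclei had no test. Scripts were tested on simulated data. Coordinates are GENCODE M21 (GRCm38). Named genes were Tgfbr1, the 5 markers, the 10 highest and 10 lowest ratios, up to 4 past 2-fold per list, and the 10 highest and 10 lowest against clusters 1 and 3. Further list members are named as examples chosen after their values were seen. Members and lists were chosen with earlier results of these data known.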

Additional observations from a re-analysis of the deposited data

Results flagged for a closer look

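For 5 genes named above, the MKO pool lay at least 2-fold above the control pool in 1 hepatocyte cluster and at least 2-fold below it in another, 1 pool each, and the difference was not tested. Cyp4a12b, a fatty acid hydroxylase typical of male mice, had a log2 ratio of -1.40 in cluster 0 and 1.87 in cluster 3, where it was at 0.961 in the MKO pool and 0.190 in the control pool. Cth had -1.27 in cluster 0 and 1.68 in cluster 3, where it was at 23.5 and 7.27. Got1 had -1.23 in cluster 0 and 1.04 in cluster 3, where it was at 6.25 and 2.98. Sds had 1.28 in cluster 0 and -1.09 in cluster 1, where it was at 3.14 and 6.82. Herpud1 had 1.24 in cluster 0 and -1.48 in cluster 3, where it was at 0.838 and 2.51.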

How the results depend on the processing

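The counts of genes at least 2-fold higher and lower in cluster 0 of the MKO pool (57 and 42) were 19 and 15 with a minimum mean of 2 per 10000, 94 and 65 with no minimum, 69 and 65 with a pseudocount of 0.01, 25 and 15 with one of 0.5, and 205 and 224 at 1.5-fold. Leaving out genes at 50% or more of their level in cluster 4, an alternative chosen after seeing the data, left 27 and 28. The pseudocount of 0.5 took 20 named genes under 2-fold, among them Orm1, Steap4, Sds, Hspa5 and Got1, and no named gene changed sign under these settings. Without its highest marker, the macrophage sum had a log2 ratio of 1.31 and the T and NK sum one of 0.29, against 0.68 and -1.15 with it. In whole liver DESeq2 called 634 genes higher and 50 lower in MKO livers and edgeR 471 and 14. Leaving out 1 liver at a time gave 175 to 410 higher and 5 to 31 lower. The counts moved by over 1.5 times without control liver 2 (238 and 5), MKO liver 2 (175 and 5) and MKO liver 3 (181 higher), and the lower count also without control liver 1 (6) and MKO liver 1 (31). Replicate numbers did not pair the livers (correlations of deviations 0.056, -0.030 and -0.109), and the fit with a replicate block called 391 higher and 17 lower. Zbtb16 was called lower in MKO livers without the third MKO liver (log2 fold change -1.88), against its higher level in cluster 0 of the MKO pool. The unknown number of nuclei limits the cluster means.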
